A study of Mus musculus with 2 samples.

Results

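Pericytes and smooth muscle cells, together called mural cells, wrap the endothelial tube of blood vessels, pericytes on capillaries and smooth muscle on arteries and arterioles. The genes described here are 10 markers of these cells, chosen by symbol: 6 of pericytes (Pdgfrb, Rgs5, Kcnj8, Abcc9, Vtn and Notch3) and 4 of smooth muscle (Acta2, Tagln, Myh11 and Myl9). All 10 have a row in the table of 53465 mouse genes. They are set against the endothelial genes Cldn5 and Flt1 and against the 1406 rows of olfactory receptors (Olfr). The Olfr rows serve as a reference for low levels, without assuming that each of them is silent in vessel cells.

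The study profiled endothelial cells isolated from C57Bl/6 mice of the tie2-cre genotype. One group was treated with GFP and the other with NeuroD1, a transcription factor of neuronal differentiation. Each group has 1 library, for which the labels name 3 mice and 10000 lysed cells. Tie2 is an endothelial promoter that is also active in some blood-forming cells, and Cre driven by it is carried by both groups. The labels give no vector, dose, age or time after treatment, and do not say whether the mice had a stroke. With 1 library per group, no difference below has a replicate check and none was tested.

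In the brain, endothelial cells release PDGF-B, and pericytes that carry its receptor PDGFRB are recruited to the capillary. Pericytes help to maintain the blood-brain barrier. Smooth muscle cells hold the contractile proteins that set the width of arterioles. Isolated endothelial fractions can carry some mural cells along, because both share a basement membrane. In a bulk library, fewer cells of a type and less RNA per cell cannot be told apart.

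Levels are in FPKM, reads per exon length on a scale of the authors' own, as deposited. The reads behind each value were recovered from these numbers, 2054962 with GFP and 2040934 with NeuroD1. The 19 genes above 1000 FPKM held 51.2% and 56.3% of them, and a protein-coding gene had a median of 24 and 20 reads. The value of 1 read implies scaling totals of 2208978 and 1950269, which are not these sums, so 1 NeuroD1 read counts 1.133 times as much as 1 GFP read. Each ratio below is on that scale, and scaling to equal read totals would multiply it by 0.889. Intervals are exact 95% intervals from the recovered reads. They cover counting error only, since nothing shows that each read is a separate molecule. Per the labels, the libraries were made with DRUG-seq primers, and whether reads rise with exon length in them was not tested. This limits comparisons between genes of unlike length, and a ranking by FPKM can differ from 1 by reads. By reads, Myh11 (84 with GFP and 63 with NeuroD1) ranked above Acta2 (30 and 38). Myh11 also lay closer to Cldn5 (106 and 87 reads) than by FPKM. Neurod1 stood at 0.664 FPKM (4 reads) with GFP and 182 FPKM (970 reads) with NeuroD1, which matches the labels. Gene totals do not separate the delivered sequence from the mouse gene.

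Promoter sequences are shown first for the members on which the results turn, with the bases upstream of the start site from RefSeq's GRCm38.p6 table. Of the 10 members, 7 had an entry (Rgs5, Kcnj8, Abcc9, Vtn, Notch3, Acta2 and Myl9). Smooth muscle genes are known for the CArG box, the site of serum response factor, which was searched on both strands with up to 1 base other than A or T in its middle. In the 250 bases upstream, 8.59% of all 32851 promoters in the table held such a box, and of the 7 members Acta2 and Myl9 did. Capitals mark the boxes in these stretches, both from smooth muscle genes. Acta2 has the highest level of the 10 members and Myl9 is among the lowest in both libraries. The Acta2 stretches are on the minus strand at chr19:34255438-34255467 and chr19:34255388-34255417, and that of Myl9 is on the plus strand at chr2:156775293-156775382.
Acta2 distal: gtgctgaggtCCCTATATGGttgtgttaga
Acta2 proximal: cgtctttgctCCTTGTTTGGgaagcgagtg
Myl9: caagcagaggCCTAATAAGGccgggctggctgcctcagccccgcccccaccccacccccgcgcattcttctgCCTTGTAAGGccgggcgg

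NeuroD1 is a basic helix-loop-helix factor, a family that binds E-boxes (CANNTG). The E-box variant CAGATG, searched on both strands (as CATCTG on the other), occurs upstream in 14.4% of promoters and, of the 7 members, in Kcnj8 only. Kcnj8 is shown because it had the largest difference between the libraries, Rgs5 as a pericyte gene with neither motif, and the site of Abcc9 because that gene encodes the partner subunit of Kcnj8. Capitals mark CAGATG read on the other strand in Kcnj8 and the variant CAGCTG in Abcc9. CAGCTG is present in 13% of promoters and, of the 7 members, in Abcc9 and Acta2. Any CANNTG, which includes both variants, was present in 66.2% of promoters and in 4 of the 7 members (Kcnj8, Abcc9, Vtn and Acta2). A match describes the letters only and is not evidence of binding. The stretches are at chr6:142571615-142571814 (minus strand), chr1:169655351-169655500 (plus strand) and chr6:142702284-142702313 (minus strand).
Kcnj8: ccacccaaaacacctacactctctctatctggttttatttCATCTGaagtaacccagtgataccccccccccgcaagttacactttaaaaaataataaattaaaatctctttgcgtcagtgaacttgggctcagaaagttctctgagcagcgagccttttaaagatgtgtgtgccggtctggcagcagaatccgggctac
Rgs5: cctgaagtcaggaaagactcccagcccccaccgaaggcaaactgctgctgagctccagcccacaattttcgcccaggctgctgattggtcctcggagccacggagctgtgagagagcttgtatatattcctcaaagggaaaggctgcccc
Abcc9: gataggaggcagCAGCTGgcctcccaccac

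The first question is how far the mural markers stood above the Olfr rows as a group. Most did not stand far above them. The Olfr rows had a median of 1.59 FPKM with GFP and 1.48 FPKM with NeuroD1, and their 95th percentile was 5.001 and 5.62 FPKM. Not all were low, since the highest Olfr row reached 74.5 and 103 FPKM. Of the 10 members, 2 lay above that percentile in the GFP library (Acta2 and Myh11) and 1 in the NeuroD1 library (Acta2). Among all protein-coding genes 23% and 17.7% did, and 14.2% did in both libraries. None of the 6 pericyte members passed it in either library. Against the Olfr median instead, 9 members were above it with GFP and 7 with NeuroD1. Most protein-coding genes were above it too, since their 25th percentile was 1.81 and 1.67 FPKM. The counting interval of the level lay wholly above the Olfr median for 7 and for 5 of the members. The same share was not computed for protein-coding genes, so this count does not set the members apart.

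**Figure D1:**
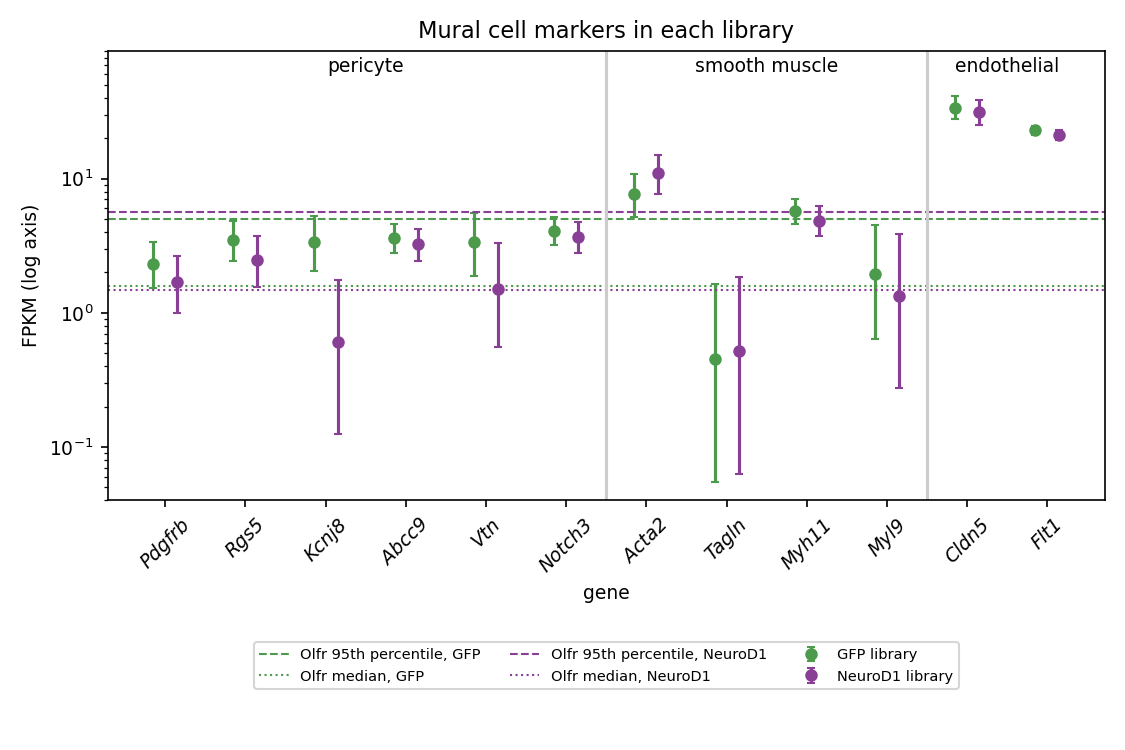
FPKM (log axis) of the 10 mural markers and of Cldn5 and Flt1 in each library, with exact 95% counting intervals as bars. Dashed and dotted lines are the 95th percentile and the median of the Olfr rows. Acta2 is the member that lies above the dashed line in both libraries, while Cldn5 and Flt1 lie above 20 FPKM.

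By FPKM, the endothelial comparison genes were far higher. Cldn5, the tight junction protein of brain endothelium (ENSMUSG00000041378), stood at 33.9 FPKM (106 reads) with GFP and 31.5 FPKM (87 reads) with NeuroD1. Flt1, a VEGF receptor (ENSMUSG00000029648), stood at 22.9 FPKM (684 reads) and 21.3 FPKM (561 reads). These levels are 21.3 and 14.4 times the Olfr median in the GFP library, against 4.79 times for Acta2 and 3.60 times for Myh11. In the NeuroD1 library they are 21.4 and 14.4 times, against 7.41 times for Acta2 and 3.30 times for Myh11. Only 5 of the 1406 Olfr rows reached the level of Cldn5 in each library.

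Among smooth muscle genes, Acta2 was the highest member by FPKM in both libraries, though not by reads. It encodes smooth muscle alpha-actin (ENSMUSG00000035783, GRCm38 chromosome 19, 34241090 to 34255590, minus strand). It stood at 7.63 FPKM with GFP (30 reads, interval 5.14 to 10.9) and 10.9 FPKM with NeuroD1 (38 reads, interval 7.74 to 15.02). The 2 intervals overlap, and the ratio of NeuroD1 to GFP was 1.43 (interval 0.866 to 2.40). Of the Olfr rows, 36 were as high with GFP and 26 with NeuroD1. Cldn5 was 4.45 times as high as Acta2 with GFP and 2.88 times with NeuroD1, and Flt1 was 3.01 and 1.95 times as high. Actin genes resemble each other, but of the 2146 stretches of 50 bases in Acta2 transcripts only 7 also occur in transcripts of another gene, among them Actg1.

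Myh11, the smooth muscle myosin heavy chain (ENSMUSG00000018830, chromosome 16, 14194535 to 14291372, minus strand), was next. It stood at 5.73 FPKM with GFP (84 reads, interval 4.57 to 7.10) and 4.87 FPKM with NeuroD1 (63 reads, interval 3.74 to 6.23). It was thus above the Olfr 95th percentile of the GFP library and below that of the NeuroD1 library, with an interval that spans the percentile in each. The ratio was 0.849 (interval 0.603 to 1.19). Among the 230 Olfr rows within 1.5 times its length, the 95th percentile was 3.91 and 4.11 FPKM, and Myh11 was above both.

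The other contractile markers rested on few reads. Myl9, a regulatory light chain of myosin (ENSMUSG00000067818, chromosome 2, 156775420 to 156781658, plus strand), stood at 1.95 FPKM (5 reads) with GFP and 1.32 FPKM (3 reads) with NeuroD1, a ratio of 0.680 (interval 0.106 to 3.49). Tagln, which encodes the actin-binding protein transgelin or SM22 (ENSMUSG00000032085, chromosome 9, 45929619 to 45936058, minus strand), had 2 reads in each library, 0.455 and 0.516 FPKM. No ratio is given for Tagln at such counts. The antisense gene annotated as Gm48529 covers 1241 of its 1988 exon bases, and 639 of them belong to no other gene. No source used here says how such shared bases were counted, and the level of Tagln is uncertain. Spread over those 639 bases alone, its 2 reads would give 1.42 and 1.605 FPKM, near the Olfr median. Acta2 and Tagln, commonly read together as smooth muscle markers, thus lay at opposite ends of the members in the GFP library.

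Among pericyte genes, Notch3, a receptor of mural cells (ENSMUSG00000038146, chromosome 17, 32120820 to 32166852, minus strand), was the highest. It stood at 4.11 FPKM with GFP (73 reads, interval 3.22 to 5.17) and 3.70 FPKM with NeuroD1 (58 reads, interval 2.81 to 4.78). The ratio was 0.900 (interval 0.626 to 1.29). Both levels lie under the Olfr 95th percentile, and 91.7% and 88.8% of Olfr rows were lower. Against the 112 Olfr rows of similar length, whose 95th percentile was 3.99 and 4.11 FPKM, Notch3 was just above it with GFP and below it with NeuroD1. The antisense gene Gm17276, at 3.25 and 1.11 FPKM, shares 488 of its 8089 annotated exon bases.

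Pdgfrb, the receptor for PDGF-B and the classical pericyte marker (ENSMUSG00000024620), was the lowest pericyte member in the GFP library. It stood at 2.31 FPKM (28 reads, interval 1.54 to 3.34) with GFP and 1.68 FPKM (18 reads, interval 0.999 to 2.66) with NeuroD1. At the Olfr median a gene of its length would hold 19.3 and 15.8 reads, and both intervals include that median. The ratio was 0.728 (interval 0.379 to 1.36). Of the Olfr rows, 69.9% and 58.5% were lower than Pdgfrb.

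Rgs5, a regulator of G-protein signalling that is abundant in pericytes (ENSMUSG00000026678, chromosome 1, 169655501 to 169695813, plus strand), stood at 3.49 FPKM (35 reads) with GFP and 2.48 FPKM (22 reads) with NeuroD1. The ratio was 0.712 (interval 0.398 to 1.25). Vtn, which encodes vitronectin, a matrix protein made by brain pericytes (ENSMUSG00000017344, chromosome 11, 78499091 to 78502324, plus strand), stood at 3.35 FPKM (15 reads) and 1.52 FPKM (6 reads). Its ratio was 0.453 (interval 0.144 to 1.24), so that Vtn had the second lowest ratio of the members. In the NeuroD1 library Vtn was at the Olfr median, with 51.4% of Olfr rows lower.

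Kcnj8 and Abcc9 encode the pore Kir6.1 and the sulfonylurea receptor SUR2, which assemble into the ATP-sensitive potassium channel of mural cells. They are neighbours on chromosome 6, both on the minus strand and 16247 bases apart (Kcnj8, ENSMUSG00000030247, 142564837 to 142571614; Abcc9, ENSMUSG00000030249, 142587862 to 142702315). After division by exon lengths of 2548 and 8373 bases, their levels were alike in the GFP library. They were 3.38 FPKM (19 reads) for Kcnj8 and 3.62 FPKM (67 reads) for Abcc9. In the NeuroD1 library Kcnj8 stood at 0.604 FPKM (3 reads, interval 0.124 to 1.76) and Abcc9 at 3.25 FPKM (53 reads, interval 2.43 to 4.25). The ratio was 0.179 for Kcnj8 (interval 0.0339 to 0.608) and 0.896 for Abcc9 (interval 0.613 to 1.30). The difference between the 2 ratios was not tested, and the upper limit of Kcnj8 lies just below the lower limit of Abcc9. With NeuroD1, 1170 of the 1406 Olfr rows were at or above Kcnj8.

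**Figure D2:**
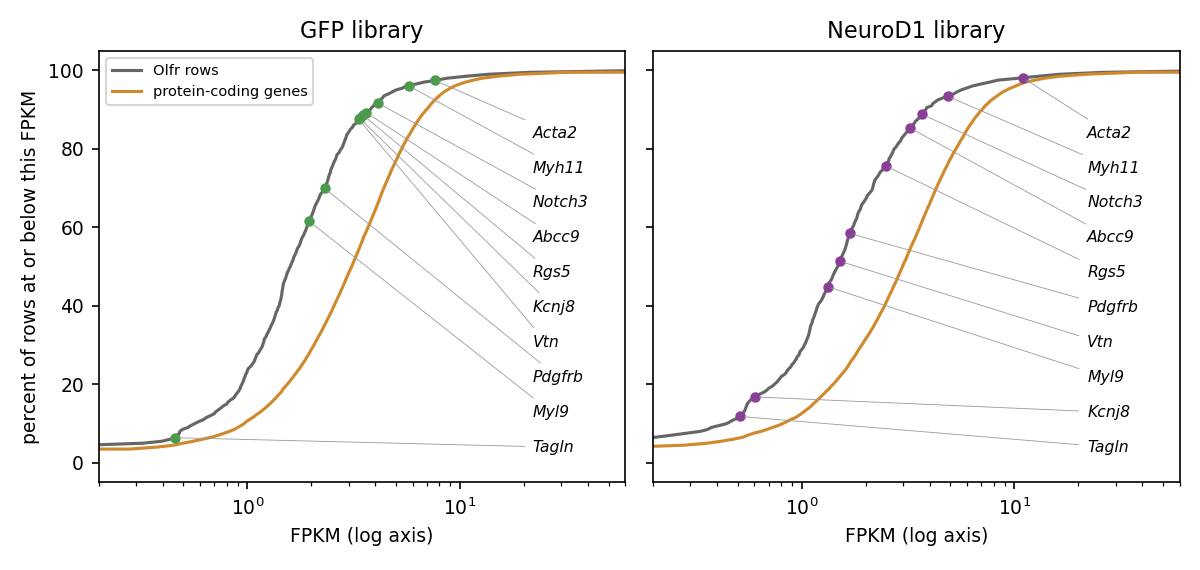
Cumulative share (percent) of Olfr rows and of protein-coding genes at or below each FPKM (log axis), with the 10 members placed as points on the Olfr curve of each library. Acta2 and Myh11 are at the top of both curves, and Kcnj8 moves from 87.8% to 16.8% between the GFP and the NeuroD1 library.

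The second question is how the markers differed between the NeuroD1-treated and the GFP-treated cells. Kcnj8 was the member whose interval excluded 1, and it was lower in the NeuroD1 library. By the measure used for all genes, log2(FPKM + 1) in NeuroD1 minus GFP, which understates the change of low genes, Kcnj8 was at -1.45. It was the 1 member of 10 with a difference of -1 or below. Such a difference was found for 3.61% of protein-coding genes, 3.88% of those with a mean FPKM in the members' range, 7.33% of Olfr rows and 11.6% of all genes, or 15.6% of all genes that reached 5 FPKM. No member reached 1. A difference of at least 1 in size, in either direction, was found for 6.07%, 6.43%, 12.4%, 19.7% and 28.5% of these same sets. At a mean of 1 to 3 FPKM, where Kcnj8 lies, 5.03% of protein-coding genes were at -1 or below and 7.91% reached 1 in size, against 3.31% and 6.55% of those that reached 5 FPKM. An interval below 1 was found for 1 of the 10 members and for 5.5% of protein-coding genes with reads. From 20 reads upward, the share was 6.22% for protein-coding genes and 5.42% for Olfr rows, and 12.1% and 11% had intervals on either side of 1. For any protein-coding gene with reads that figure was 10.6%. Whether these differences come from the treatment or from the single libraries cannot be told apart.

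Of the 10 members, 8 were lower in the NeuroD1 library and Acta2 was higher. Tagln, with 2 reads in each library, was higher only by the 1.133 that the scale gives each NeuroD1 read. The median difference of the members was -0.25 on the log2(FPKM + 1) scale. It was -0.007 over all protein-coding genes, of which 50.6% were lower, and -0.043 over the Olfr rows. All 6 pericyte members were lower, with a median of -0.33. The 4 smooth muscle members had a median of -0.07, with 2 lower. Scaling to equal read totals, which gave a median of -0.13 over protein-coding genes and -0.38 over the members, left 8 of 10 lower. Scaling the libraries to an equal FPKM total moved the median of protein-coding genes to -0.18, and Tagln was then lower too, which made 9 of 10.

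With reads summed, the 6 pericyte members had 237 reads with GFP and 160 with NeuroD1, a ratio of 0.765 (interval 0.622 to 0.938). Without Kcnj8 the other 5 had a ratio of 0.816 (interval 0.660 to 1.01) on the authors' scale. Whether these intervals lie below 1 depends on the scale: with equal read totals the ratios were 0.680 (interval 0.553 to 0.834) and, without Kcnj8, 0.725 (interval 0.587 to 0.894). With an equal Olfr median they were 0.825 (interval 0.671 to 1.01) and 0.880 (interval 0.712 to 1.09). The 4 smooth muscle members had 121 and 106 reads, a ratio of 0.992 (interval 0.757 to 1.30). For all 10 members the ratio was 0.842 (interval 0.715 to 0.989), and 0.879 (interval 0.745 to 1.04) without Kcnj8. The same sum gave 0.929 (interval 0.836 to 1.03) for Cldn5 and Flt1 and 0.9997 (interval 0.979 to 1.02) for the Olfr rows. Protein-coding genes with a mean FPKM within the range of the members had a ratio of 0.984. With equal read totals, Cldn5 and Flt1 had 0.826 (interval 0.743 to 0.917) and the Olfr rows 0.889 (interval 0.870 to 0.908). Of the single members, Kcnj8 alone had an interval that excluded 1 under each of the 4 other scalings run.

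**Figure D3:**
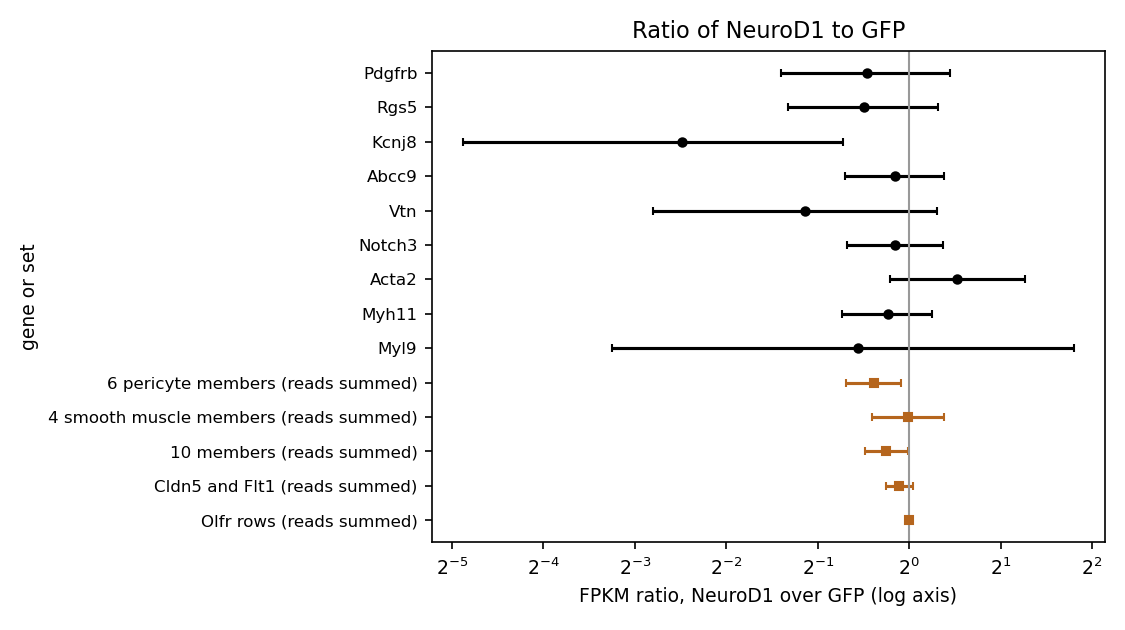
Ratio of NeuroD1 to GFP (log axis) for 9 members, Tagln being left out for its few reads, and for sets with their reads summed. Bars are exact 95% counting intervals, and the vertical line marks a ratio of 1. The bar of Kcnj8 lies wholly below 1, and the summed pericyte bar ends at 0.938.

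Further pericyte genes did not share one direction. Of 20 such genes, 1 was at 1 or above on the log2(FPKM + 1) scale and 1 at -1 or below, the median difference was -0.05 and 11 were lower. A difference of at least 1 in size was found for 6.07% of protein-coding genes. Of protein-coding genes with reads, 5.5% had an interval below 1 and 10.6% on either side. In this list the interval lay below 1 for 3 of the 18 with recovered reads and above 1 for 1. The lower ones were Foxc1, a transcription factor of mural cells, at 4.96 and 2.90 FPKM (64 and 33 reads, ratio 0.584, interval 0.372 to 0.902), Gja4, a gap junction protein that endothelium also uses, at 3.22 and 0.609 FPKM (12 and 2 reads, ratio 0.189, interval 0.0205 to 0.848), and Des, the intermediate filament desmin, at 3.38 and 1.64 FPKM (28 and 12 reads, ratio 0.485, interval 0.225 to 0.986, or 0.242 to 1.06 with an equal Olfr median). Slc6a13, a GABA transporter also found in fibroblasts of the vessel wall, was higher, at 0.779 and 3.002 FPKM (5 and 17 reads, ratio 3.85, interval 1.36 to 13.4). The transcription factor Foxf2, at 4.79 and 6.29 FPKM, and the ADP-ribosyltransferase Art3, at 3.799 and 5.09 FPKM, had the highest mean levels of this list. With reads summed, this list had a ratio of 0.913 (interval 0.788 to 1.06), or 0.811 (interval 0.701 to 0.939) with equal read totals.

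Of 20 further smooth muscle genes, 9 were lower in the NeuroD1 library, none reached a difference of 1 in size, and the median difference was 0.08. Their summed reads gave the other direction, a ratio of 0.954 (interval 0.868 to 1.05), or 0.848 (interval 0.771 to 0.931) with equal read totals. In both libraries 3 of the 20 lay above the Olfr 95th percentile (Cnn1, Sncg and Mustn1), a share near the 14.2% of protein-coding genes. Calponin, encoded by Cnn1, stood at 7.11 and 9.93 FPKM (43 and 53 reads, ratio 1.40, interval 0.916 to 2.14), and Sncg, gamma-synuclein, at 21.3 and 30.1 FPKM (40 and 50 reads, ratio 1.42, interval 0.916 to 2.20). Both intervals include 1. An interval below 1 was found for 2 of the 20 genes, beside 5.5% of protein-coding genes with reads. Synpo2, an actin-associated protein, had 6.93 and 4.996 FPKM, a ratio of 0.721 (interval 0.573 to 0.905). Mrtfa, a coactivator of serum response factor, had 2.81 and 1.34 FPKM, a ratio of 0.477 (interval 0.248 to 0.876).

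Ligands and partners through which endothelium and mural cells signal were higher in level. Of 15, 9 lay above the Olfr 95th percentile in both libraries, against 14.2% of protein-coding genes. Among these 9 was Pdgfb, the ligand of the Pdgfrb receptor, at 7.45 and 9.49 FPKM. The Notch ligands Jag1, at 7.15 and 5.98 FPKM, and Dll4, at 8.46 and 5.86 FPKM, were also among them. These 3 were named after their values were seen. Edn1, which encodes the constrictor endothelin-1, at 11.4 and 12.7 FPKM, and S1pr1, a sphingosine-1-phosphate receptor of endothelium, at 9.36 and 10.8 FPKM, were the highest of this list. Cdh2, N-cadherin of the contacts between pericytes and endothelium, had 2.64 and 1.21 FPKM, a ratio of 0.458 (interval 0.254 to 0.795). The TGF-beta receptor Tgfbr1 had 3.53 and 2.12 FPKM, a ratio of 0.5996 (interval 0.362 to 0.974, or 0.390 to 1.05 with an equal Olfr median). No other of the 14 genes with recovered reads had an interval that excluded 1. Among protein-coding genes with reads, 5.5% had an interval below 1 and 10.6% on either side.

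Relatives of the members helped to place them. Among 9 Notch relatives and targets, Notch1, a receptor of endothelium, stood at 6.81 and 9.69 FPKM (214 and 269 reads, ratio 1.42, interval 1.19 to 1.71), above Notch3 in both libraries. The Notch target Hes1 stood at 12.7 and 12.6 FPKM. Among 18 paralogs, the cytoplasmic actin Actb stood at 26.5 and 40.2 FPKM (ratio 1.52, interval 1.23 to 1.88), so that Acta2 was also below the actin that all cells use. The light chain Myl12b, for which reads were not recovered, stood at 13.2 and 25.8 FPKM, against under 2 FPKM for its relative Myl9. Abcc8, the pancreatic and neuronal relative of Abcc9, stood at 1.62 and 2.85 FPKM (ratio 1.76, interval 1.08 to 2.91, or 0.958 to 2.58 with equal read totals).

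Markers of other cells were compared in the same way. Of 15 endothelial markers, 14 lay above the Olfr 95th percentile with GFP and 13 with NeuroD1, with a median of 12.4 and 11.8 FPKM. The pericyte members had a median of 3.43 and 2.08 FPKM. Fibroblast, microglial, astrocyte and oligodendrocyte lists had medians between 2.16 and 3.16 FPKM, and at most 2 genes of each passed the percentile in a library. Medians were 2.995 and 3.88 FPKM for neuronal genes, 3.87 and 1.65 FPKM for platelet genes and 5.30 and 2.86 FPKM for red cell genes. The highest values were 26.8 and 31.0 FPKM among neuronal genes and 13.6 and 10.7 FPKM among red cell genes. No marker of these lists was at 0. Few genes were, since 61 of the 1406 Olfr rows were at 0 with GFP and 87 with NeuroD1. Of 22040 protein-coding genes, 666 and 864 were at 0. A value above 0 therefore does not show that a cell type was present. Several lists were lower in NeuroD1 with reads summed: 0.847 (interval 0.716 to 1.001) for 6 fibroblast genes, 0.769 (interval 0.598 to 0.986) for 8 microglial genes and 0.755 (interval 0.532 to 1.06) for 4 platelet genes, against 1.09 (interval 1.03 to 1.15) for the endothelial markers. The summed level was 18.97 and 16.3 FPKM for the fibroblast genes, 27.7 and 21.05 FPKM for the microglial genes and 15.5 and 9.04 FPKM for the platelet genes, beside 20.3 and 13.2 FPKM for the pericyte members. The ratio was 0.723 (interval 0.465 to 1.11) for 4 red cell genes, 1.16 (interval 0.965 to 1.40) for 6 astrocyte genes, 1.06 (interval 0.813 to 1.38) for 6 oligodendrocyte genes and 1.22 (interval 1.08 to 1.38) for 6 neuronal genes. With equal read totals the endothelial interval was 0.916 to 1.03 and the neuronal one 0.957 to 1.22, and those of fibroblast, platelet and red cell genes lay below 1. With an equal Olfr median the microglial interval was 0.645 to 1.06, and those of fibroblast, platelet and red cell genes also included 1. The endothelial, neuronal and astrocyte intervals then lay above 1. The part of other cell types in the lower pericyte values was not tested. Over a wider list of 10 fibroblast genes 8 were lower, and none of the 9 with recovered reads had an interval that excluded 1. The collagen gene Col1a1, at 6.21 and 5.47 FPKM, and the transporter Slc22a6, at 5.85 and 4.58 FPKM, were its highest.

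**Figure D4:**
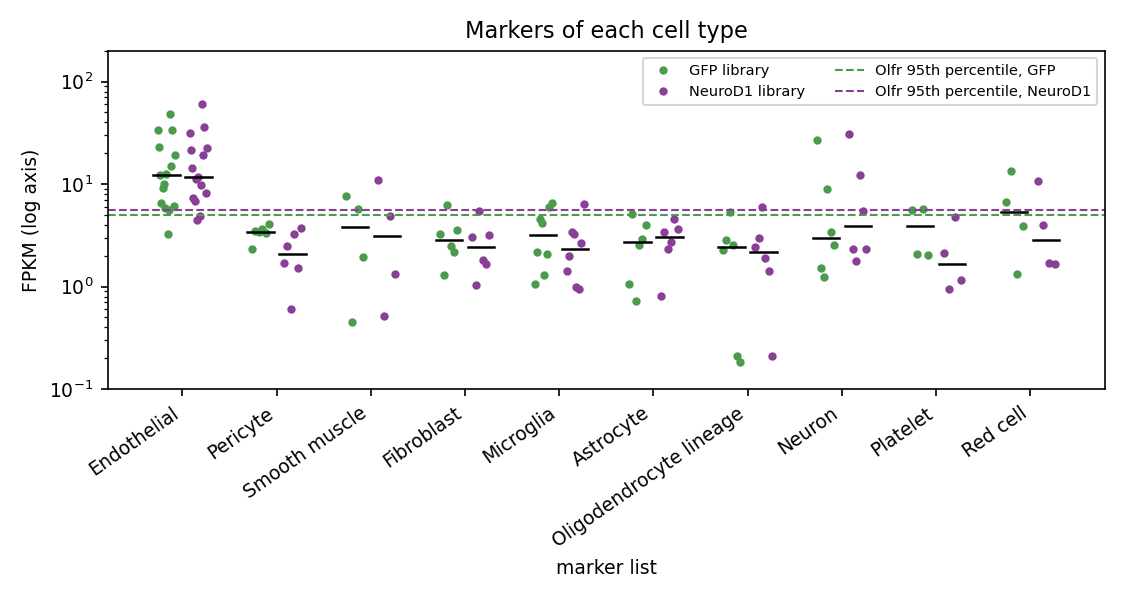
FPKM (log axis) of each marker gene by cell type list in the GFP and the NeuroD1 library, with black bars at the list medians and dashed lines at the Olfr 95th percentile. The endothelial list has medians of 12.4 and 11.8 FPKM, whereas the medians of pericyte and smooth muscle genes lie under the dashed lines in both libraries.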

How the data were processed

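The authors deposited FPKM values of both libraries in 1 table. Bowtie2 2.3.5.1, the build GRCm38, featureCounts 1.6.3 and DESeq were used per the submitters' processing notes, which give no order. Strand, multi-mapping reads and molecular identifiers are not given in the sources used here. Per the labels, libraries were made with DRUG-seq primers.

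FPKM times the merged exon length of GENCODE M21 came out in whole steps, 452.7 in GFP and 512.7 in NeuroD1. Within 0.02 reads, 51162 genes gave whole reads in both. For 1051 more, among them Notch3, Acta2, Myh11 and Cldn5, exactly 1 other length from 0.6 to 1.6 times the annotated one gave whole reads within 1e-04 (8044 bases for Notch3, 1781 for Acta2, 6632 for Myh11 and 1414 for Cldn5). Reads were not recovered for 1252 genes. Ratios are of FPKM, with Clopper-Pearson intervals. Level intervals are exact Poisson. The recovery was also run on data simulated with these same steps, which cannot show that reads recovered from the deposited values are right.

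The 10 members, the gene lists and the measures were chosen with earlier results of these data known. Of each list, the rule named the 2 genes highest in mean FPKM and up to 4 whose interval excluded 1. Olfr rows are all symbols that begin with Olfr and a digit, pseudogenes included. Alternatives were other pseudocounts, scalings, minimums and Olfr percentiles. Intervals were computed with scipy 1.17.1 under Python 3.11.15, with pandas 2.3.3, numpy 2.4.6 and, for plots, matplotlib 3.10.9.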

Additional observations from a re-analysis of the deposited data

How the results depend on the processing

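No paired analysis was possible because GFP and NeuroD1 have 1 library each, and so no replicate could be left out. Equal totals of recovered reads, the other scalings of the pericyte sums, leaving out Kcnj8 from the summed reads and taking protein-coding Olfr rows only were chosen after seeing the data. The number of members at -1 or below, 1 at first, was 2 with a pseudocount of 0.1, 0 with a pseudocount of 5, 2 with the Olfr median subtracted and 0 at a minimum of 5 FPKM, which keeps 2 members. No member reached 1 under any setting run. Members above the Olfr percentile numbered 0 in both libraries at the 99th percentile. In the NeuroD1 library there were 2 (Acta2 and Myh11) at the 90th percentile and 2 against Olfr rows of like length. In the GFP library both settings gave 3 (Acta2, Myh11 and the pericyte member Notch3). The pooled ratio of 0.842 was 0.714 (interval 0.607 to 0.840) with an equal FPKM total in each library, 0.748 (interval 0.636 to 0.879) with equal read totals, 0.908 (interval 0.772 to 1.07) with the same Olfr median, and 0.839 (interval 0.696 to 1.01) without Myh11. The median difference of the members stayed between -0.43 and -0.13. Of 70 member differences under other settings, 69 lay within the counting interval of the first value, and Kcnj8 with a pseudocount of 0.1 (-2.30) did not. This count says little about robustness, because the intervals are wide beside the scaling factors of 0.849 to 1.08. Other pseudocounts also change the measure itself. Over all genes, the counts lower and higher, 2295 and 1887, became 1387 and 1061 at a pseudocount of 5, then 6195 and 4343 without the minimum, 164 and 237 at 5 FPKM in both libraries and 212 and 208 for protein-coding genes. Under the last 3 of these settings the number of genes entering differs. With an equal FPKM total they were 3019 and 1405, with equal read totals 2793 and 1496, and with the same Olfr median 2069 and 2268. In the NeuroD1 library Tagln rests on 2 reads, and Kcnj8 and Myl9 on 3 each.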
